A study of Mus musculus with 26 samples.

Results

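RNA 5-hydroxymethylcytosine (5hmC) peaks of mouse embryonic stem cells (ESCs) with a tagged Tet2 were compared with those of wild-type (WT) ESCs. The WT ESC group had 3 immunoprecipitated libraries and the Tet2-KI group had 2, which are 5 of the 13 immunoprecipitated libraries of the series. The Tet2-KI cells were made from WT ESCs by cutting with the Cas9 nickase at the stop codon of Tet2, so that the protein ends in a Flag, HA and Twin-Strep tag, and clones were picked after a western blot for Flag and sequencing of the edited site. How many clones stand behind the replicates is not given, so the group may be 1 clone. Both groups grew on gelatin in serum with leukemia inhibitory factor, and neither carries another edited gene in its labels. The lines were made to find RNA bound by Tet2 and as the control of a Tet2 lacking its RNA-binding domain. A tag therefore was the only named genetic difference between the groups, but they also came from different experiments. The descriptions of WT ESC replicate 1 begin with 1608 and those of replicates 2 and 3 with 1703, whereas the peak names of the Tet2-KI lists carry 1711, and what these prefixes number is not stated. No prefix covers both genotypes, so genotype and experiment cannot be told apart, and each difference below is given as one between lists.

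Total RNA was sheared and fragments were pulled down with an antibody against 5hmC (hMeRIP-seq), and a peak is a 200 bp interval round a summit that passed a q-value of 0.05 over the library's own input. Intervals of the 5 libraries that overlapped by 1 bp or more were merged into 18774 regions. Of these, 717 held a peak in all 5 libraries (3.82%), 225 held one in all 3 WT ESC and no Tet2-KI library (1.2%, called WT-only), and 1003 held one in both Tet2-KI and no WT ESC library (5.34%, called KI-only). The presence of peaks chose these classes, so their sizes and their presence in the 5 libraries are descriptions and carry no test. Read depth is unknown here, and where no peak is listed the threshold was not passed, which does not show that 5hmC was lacking. Fold enrichment over input was deposited for the WT ESC lists alone. In bulk RNA, fewer cells of a type and less RNA per cell cannot be told apart.

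Tet1, Tet2 and Tet3 are dioxygenases that oxidise 5-methylcytosine to 5hmC, best known in DNA, where this is a step towards demethylation. Tet2 lacks the CXXC domain that Tet1 has, and partner proteins recruit it to chromatin. The study ties part of its RNA targeting to an RNA-binding domain of Tet2 itself. In embryonic stem cells Tet1 and Tet2 are the abundant members, while Tet3 is known from the oocyte and from differentiated cells.

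The sequences of the classes are shown by 11 regions, printed as the 200 bases round the region's median summit, 5′ to 3′ on the strand of the gene, from the mouse build NCBIM37 (mm9). Of the regions of all 5 libraries in coding genes, the 3 with the highest fold enrichment in WT ESCs, ranked by their lowest replicate, are shown. All 3 were intronic, with 29.5%, 38% and 36% C or T. Capitals mark 1 copy of the repeated unit, which was 26 nt in Dyrk1a and 28 nt in Calm2, where 98.9% and 88.4% of bases matched the base 1 unit away. Ube2v1 had no unit of 5 to 60 nt above the 80% match asked for, and its first line has no capitals.
Ube2v1, intron, minus strand, chr2:167440280-167440479: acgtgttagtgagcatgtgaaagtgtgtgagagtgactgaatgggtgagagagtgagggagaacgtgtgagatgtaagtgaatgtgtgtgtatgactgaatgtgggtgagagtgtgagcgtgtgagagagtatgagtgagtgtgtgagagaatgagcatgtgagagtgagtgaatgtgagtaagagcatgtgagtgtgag
Dyrk1a, intron, plus strand, chr16:94851574-94851773: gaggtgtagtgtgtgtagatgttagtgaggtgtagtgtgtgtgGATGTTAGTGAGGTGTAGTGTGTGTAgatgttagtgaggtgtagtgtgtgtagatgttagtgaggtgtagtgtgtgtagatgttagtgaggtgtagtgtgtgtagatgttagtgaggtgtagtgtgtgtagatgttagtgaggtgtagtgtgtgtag
Calm2, intron, minus strand, chr17:87837175-87837374: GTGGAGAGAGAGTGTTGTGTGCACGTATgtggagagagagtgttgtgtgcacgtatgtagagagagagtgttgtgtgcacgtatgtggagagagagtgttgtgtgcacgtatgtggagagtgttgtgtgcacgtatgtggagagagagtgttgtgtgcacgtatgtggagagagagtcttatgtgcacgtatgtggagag

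Of the 10 WT-only regions in coding genes that ranked highest in the same way, 3 were chosen after their sequences were seen, as examples of pyrimidine- or purine-rich sequence. Plxdc2 holds an ACAG and Rad51l1 a CT tandem repeat, while no run in Hivep3 was long enough to count as one. Rora, Odz4, Bcas3, Adap1 and Ntn1, also among the 10, had 38.5% to 49.5% C or T and no tandem repeat. Capitals mark unbroken runs of 8 or more C or T. The share of C and T was 20.5% in Plxdc2, 78.5% in Hivep3 and 85.5% in Rad51l1.
Plxdc2, intron, plus strand, chr2:16458658-16458857: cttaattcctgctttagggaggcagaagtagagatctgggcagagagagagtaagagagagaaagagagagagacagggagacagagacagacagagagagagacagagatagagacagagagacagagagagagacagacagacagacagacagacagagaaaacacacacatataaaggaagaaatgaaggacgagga
Hivep3, intron, plus strand, chr4:119606732-119606931: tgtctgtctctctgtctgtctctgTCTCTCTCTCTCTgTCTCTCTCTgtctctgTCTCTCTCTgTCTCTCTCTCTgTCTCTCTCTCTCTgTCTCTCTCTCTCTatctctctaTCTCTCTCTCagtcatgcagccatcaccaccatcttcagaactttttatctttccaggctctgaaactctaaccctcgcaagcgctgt
Rad51l1, intron, plus strand, chr12:80617723-80617922: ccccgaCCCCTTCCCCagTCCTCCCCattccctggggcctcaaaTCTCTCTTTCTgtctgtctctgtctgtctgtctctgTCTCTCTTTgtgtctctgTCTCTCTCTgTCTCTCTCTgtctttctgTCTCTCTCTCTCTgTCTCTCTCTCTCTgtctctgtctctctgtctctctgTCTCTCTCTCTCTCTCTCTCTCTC

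KI-only regions have no enrichment value to rank them. The 2 in Tet2 itself are shown because Tet2 is the edited gene, and those in Terf1, Zbtb10 and Prkcc as the first in position order on chromosomes 1, 3 and 7, 3 of the 10 such regions, picked after all 10 had been seen and including the most purine-rich, with capitals again at runs of 8 or more C or T. The share of C and T was 36.5% and 39.0% in the 2 Tet2 regions, 44.5% in Terf1, 34.5% in Zbtb10 and 16.5% in Prkcc. In the 7 not shown it ran from 37.5% to 52.5%.
Tet2, coding sequence, minus strand, chr3:133132328-133132527: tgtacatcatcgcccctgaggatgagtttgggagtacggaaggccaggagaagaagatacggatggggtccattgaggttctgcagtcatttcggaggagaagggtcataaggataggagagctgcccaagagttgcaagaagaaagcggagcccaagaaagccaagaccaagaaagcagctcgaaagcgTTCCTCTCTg
Tet2, intron, minus strand, chr3:133189513-133189712: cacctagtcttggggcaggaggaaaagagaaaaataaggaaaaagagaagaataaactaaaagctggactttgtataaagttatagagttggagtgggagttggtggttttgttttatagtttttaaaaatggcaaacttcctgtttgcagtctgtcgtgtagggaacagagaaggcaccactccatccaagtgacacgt
Terf1, coding sequence, plus strand, chr1:15832928-15833127: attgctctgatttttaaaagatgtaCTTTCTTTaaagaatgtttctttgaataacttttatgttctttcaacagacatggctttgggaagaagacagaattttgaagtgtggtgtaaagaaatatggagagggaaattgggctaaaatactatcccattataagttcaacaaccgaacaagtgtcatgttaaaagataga
Zbtb10, coding sequence, plus strand, chr3:9280809-9281008: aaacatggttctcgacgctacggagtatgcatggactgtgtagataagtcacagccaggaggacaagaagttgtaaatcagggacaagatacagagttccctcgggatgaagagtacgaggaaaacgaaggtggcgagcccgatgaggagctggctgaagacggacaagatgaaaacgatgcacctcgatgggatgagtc
Prkcc, intron, plus strand, chr7:3313608-3313807: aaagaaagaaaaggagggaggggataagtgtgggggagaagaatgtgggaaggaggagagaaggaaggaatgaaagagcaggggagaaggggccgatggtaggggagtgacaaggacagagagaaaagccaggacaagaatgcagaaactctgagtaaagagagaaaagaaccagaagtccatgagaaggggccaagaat

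The edited gene was examined first. Tet2 (ENSMUSG00000040943.7, chromosome 3, 133126643 to 133207354) held 8 peaks, 7 of them from the Tet2-KI libraries. Of the 34171 peaks of the 5 lists, 10383 and 5781 were from Tet2-KI replicates 1 and 2. Its coding sequence held a KI-only region at chr3:133132325-133132530, and the summits of the 2 libraries lay 1639 and 1645 coding nucleotides upstream of the stop codon, where the tag begins. A second KI-only region lay in an intron at chr3:133189507-133189718. Tet2-KI replicate 1 alone had a further coding peak at chr3:133143199-133143398, and replicate 2 alone an intronic peak at chr3:133175997-133176196. The only WT ESC peak in the gene came from replicate 2, with a fold enrichment of 5.54, in an intronic region at chr3:133175719-133175996 that Tet2-KI replicate 2 shared. Neither KI-only region of Tet2 had a peak in the 8 libraries of the other genotypes and of embryoid bodies. Peak positions do not report the tag or the level of Tet2 RNA, so they are no check of the edit.

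Tet1 held a region of all 5 libraries in intron 3 at chr10:62319646-62319879. Its fold enrichment was 2.77, 5.29 and 5.25 in WT ESC replicates 1, 2 and 3, so replicate 1 was the lowest. Tet2-KI replicate 1 had another intronic peak in Tet1 at chr10:62316357-62316556. Tet3 held no peak in any of the 5 libraries.

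The lists differed in length as much within the groups as between them. WT ESC replicates 1, 2 and 3 held 4395, 7113 and 6499 peaks, and Tet2-KI replicates 1 and 2 held 10383 and 5781. The longest list was a Tet2-KI list and the shortest a WT ESC list, and Tet2-KI replicate 2 lay within the WT ESC range. The mean was 6002 ± 1425 (SD, n = 3) in WT ESCs and 8082 ± 3254 (SD, n = 2) in Tet2-KI cells, a ratio of geometric means of 1.32, which did not pass a 2-sided exact permutation test over the 5 libraries (p = 0.6). With 3 libraries against 2, no 2-sided p below 0.2 can be reached. Without Tet2-KI replicate 1 the log2 difference turned from 0.40 to -0.02.

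Peaks in coding genes were mainly intronic in every library. The intronic share of these peaks was 66%, 76.2% and 75.3% in WT ESC replicates 1, 2 and 3 and 68.9% and 69.4% in Tet2-KI replicates 1 and 2, so the Tet2-KI values lay inside the WT ESC range. The means were 72.5% ± 5.68 (SD, n = 3) and 69.2% ± 0.367 (SD, n = 2), and the exact permutation test gave p = 0.6. With WT ESC peaks at or above the median fold enrichment alone, the difference was -8.07 percentage points and the groups did not overlap (exact permutation p = 0.2). The Tet2-KI lists hold no enrichment and were left whole, so this sets filtered against unfiltered lists.

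**Figure D1:**
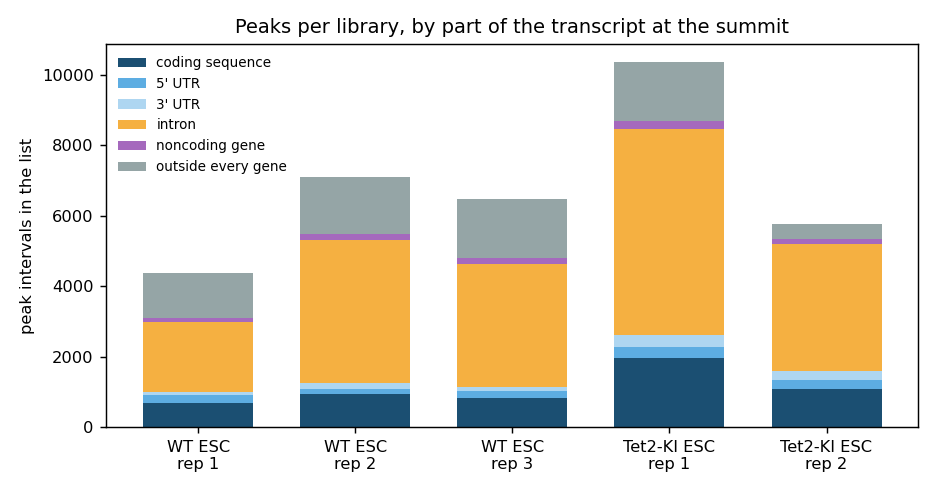
Number of peak intervals in each of the 3 WT ESC and 2 Tet2-KI lists, 1 stacked bar a library, coloured by the part of the transcript at the summit. Introns make up the largest part of every bar, and the bar of Tet2-KI replicate 2, with 5781 peaks, has a smaller part outside every gene than the WT ESC bar of 6499 peaks.

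The groups did not overlap in 2 of the measures tested. Peaks outside the span of every coding gene made up 31.8%, 25% and 28.3% of WT ESC replicates 1, 2 and 3 and 18.4% and 9.97% of Tet2-KI replicates 1 and 2. All 3 WT ESC values were above both Tet2-KI values, with means of 28.4% ± 3.38 (SD, n = 3) and 14.2% ± 5.93 (SD, n = 2). The exact permutation test gave p = 0.2, the smallest this design allows. Intervals with a tandem repeat, meaning a run of at least 18 nt of a unit of 1 to 3 nt or of at least 20 nt of a unit of 4 nt, made up 25.7%, 19.5% and 22.0% in WT ESCs and 14.0% and 4.47% in Tet2-KI cells. Here too the groups did not overlap, with means of 22.4% ± 3.13 (SD, n = 3) and 9.23% ± 6.73 (SD, n = 2) and p = 0.2 in the exact permutation test. The difference in the tandem repeat share, -13.1 percentage points, was -8.39 without Tet2-KI replicate 2 and -17.9 without replicate 1. Windows of 200 bp laid every 20 kb along the genome held such a repeat in 5.72% of cases, so every WT ESC list and Tet2-KI replicate 1 lay above that share and Tet2-KI replicate 2 below it. When peaks with a tandem repeat were left out, a choice made after seeing the data, the share outside coding genes still fell by 8.66 percentage points from WT ESC to Tet2-KI libraries, again with p = 0.2 in the exact permutation test.

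Further measures in which the groups did not overlap were not tested. Of peaks in coding genes, those with at least 65% C or T on the gene's strand made up 9.04%, 6.23% and 7.30% in WT ESCs and 3.62% and 1.29% in Tet2-KI cells, and those in the 3′ UTR 3.71%, 3.46% and 2.71% and 4.28% and 4.89%.

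Low tandem repeat shares and low shares outside coding genes were not limited to the Tet2-KI lists. The tandem repeat share was 12.8%, 4.99% and 10.7% in the 3 libraries of TKO ESCs, which lack Tet1, Tet2 and Tet3, and 4.83%, 6.64% and 3.29% in the 3 of WT embryoid bodies (EBs), formed by 4 days without leukemia inhibitory factor. It was 7.26% and 3.59% in the 2 libraries of Tet2deltaRBD-KI ESCs, which carry the same tag on a Tet2 without its RNA-binding domain. All 8 of these values lay below those of the 3 WT ESC libraries. Descriptions of TKO ESC and WT EB libraries share prefixes with those of WT ESCs, 1703 for replicates 2 and 3 of each and 1608 for TKO ESC replicate 1. Outside coding genes lay 18.5%, 9.97% and 16.6% of the TKO ESC peaks, 8.45%, 10.8% and 6.98% of the WT EB peaks and 12.5% and 8.30% of the Tet2deltaRBD-KI peaks.

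The regions of the 5 libraries were shared more within than between the groups, by a small margin. The Jaccard index, the share of the regions of a pair of libraries that both hold, was 0.234, 0.260 and 0.292 for the pairs of WT ESC libraries and 0.240 for the Tet2-KI pair. Between the groups it ran from 0.149 to 0.256, so the ranges overlapped: WT ESC replicate 2 shared more with Tet2-KI replicate 1 than with WT ESC replicate 1. The mean within groups was 0.256 and that between groups 0.197. The difference of 0.0592 reached the smallest p that a 1-sided exact permutation test can give here (p = 0.1). It was 0.0260 without Tet2-KI replicate 2 and 0.104 without Tet2-KI replicate 1. In 507 of the 717 regions of all 5 libraries, those with 1 summit in each library, the median distance between their summits was 13 to 19 bp for WT ESC pairs, 13 bp for the Tet2-KI pair and 14 to 21 bp between groups. In these regions the summits lay little farther apart between the groups than between replicates.

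**Figure D2:**
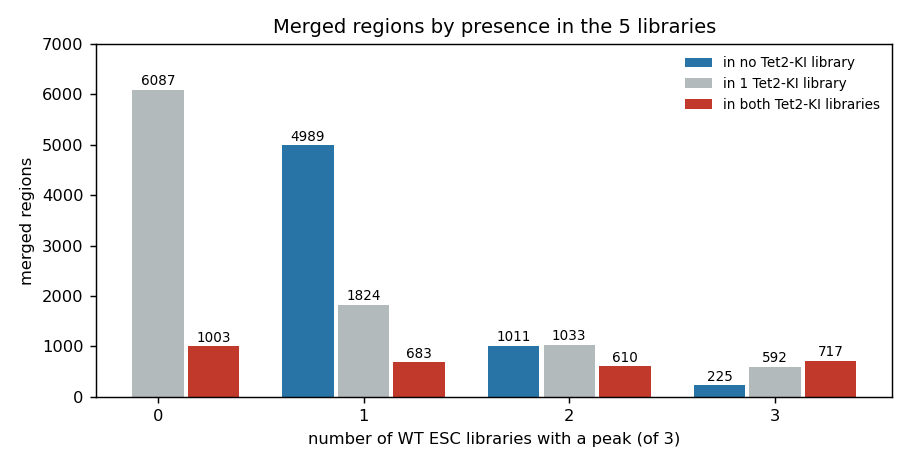
Number of merged regions by how many of the 3 WT ESC libraries held a peak there (x axis) and whether no, 1 or both Tet2-KI libraries did (colours). The tallest bars, 6087 and 4989, are regions of 1 library, and the classes described in the text hold 717 (all 5), 225 (WT-only) and 1003 (KI-only) regions.

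Most regions belonged to 1 library. Of the regions without a WT ESC peak, 6087 were found in 1 Tet2-KI library and 1003 in both, and 4989 regions were found in 1 WT ESC library and no other. Of the 1534 regions that all 3 WT ESC libraries held, Tet2-KI replicate 1 held 1283 (83.6%) and replicate 2 held 743 (48.4%), which left 14.7% without a Tet2-KI peak. Of the 3013 regions that both Tet2-KI libraries held, WT ESC replicates 1, 2 and 3 held 36.8%, 50.8% and 47.0%, and 33.3% had no WT ESC peak. The longer Tet2-KI list thus held more of the WT ESC regions than the shorter one did.

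The sizes of the classes depended on single libraries. WT-only regions rose from 225 to 794 without Tet2-KI replicate 1, and were 741, 504 and 443 without WT ESC replicates 1, 2 and 3. KI-only regions were 3130 without Tet2-KI replicate 1 and 5018 without replicate 2. Regions of all remaining libraries were 1114 without WT ESC replicate 1 and 1286 without Tet2-KI replicate 2.

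Each class was then found again with 1 WT ESC and 1 Tet2-KI library left out, in the 6 possible choices, and looked up in the libraries left out. Of all 18774 regions, Tet2-KI replicates 1 and 2 held 9999 and 5563 and WT ESC replicates 1, 2 and 3 held 4157, 6945 and 6304. The shares below are not corrected for this. KI-only regions found this way held a peak in 21.6% to 37.2% of cases in the left-out Tet2-KI library (median 29.0%). In the left-out WT ESC library they held one in 7.83% to 16.4% (median 11.0%), and the Tet2-KI share was higher in all 6 choices. WT-only regions held a peak in 30.6% to 65.5% in the left-out WT ESC library (median 48.0%) and in 9.03% to 63.7% in the left-out Tet2-KI library (median 35.5%). The WT ESC share was higher in 4 of the 6 choices. With Tet2-KI replicate 1 as the one left out, the WT ESC share minus the Tet2-KI share was -14.5, -0.69 and 1.80 percentage points, and with replicate 2 left out it was 19.3 to 38.5. Regions that the WT ESC lists shared and Tet2-KI replicate 2 lacked were thus about as often found in Tet2-KI replicate 1 as in a further WT ESC library.

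The parts of genes differed among the classes. Of the regions on the assembled chromosomes, introns of coding genes held 384 of 715 regions of all 5 libraries (53.7%; 95% Clopper-Pearson interval, 50.0% to 57.4%), 87 of 225 WT-only regions (38.7%; 32.3% to 45.4%) and 614 of 999 KI-only regions (61.5%; 58.4% to 64.5%), against 56.5% of all regions. Coding sequence held 27.7%, 8.44% and 19.3%, against 15.3% of all regions. The 3′ UTR held 3.78%, 0.889% and 6.01%, against 3.30%, and the 5′ UTR 2.94%, 5.33% and 4.60%, against 3.32%, so that several of these shares lay near that of all regions. Outside every annotated gene lay 8.53% of the regions of all 5 libraries (6.59% to 10.8%), 44.9% of the WT-only regions (38.3% to 51.6%) and 5.91% of the KI-only regions (4.53% to 7.55%), against 19.3% of all regions. These intervals cover counting error over regions only, since regions of 1 library are not replicates. With presence in WT ESCs taken from peaks at or above the median fold enrichment alone, the share in coding sequence was 16.3% for regions of all 5 libraries, below the 19.3% of the KI-only regions, and 0 of 48 for WT-only regions, which allows a share of up to 6.25%. The WT-only share outside every gene was then 29.2%. The classes were built from these same lists, where WT ESC peaks lay outside coding genes more often, so that is not separate evidence.

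**Figure D3:**
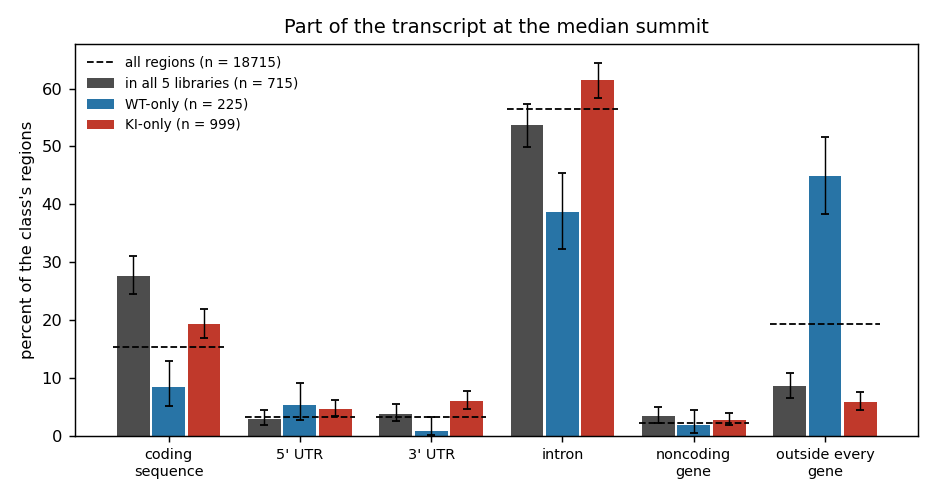
Percent of the regions of each class whose summit fell in each part of a gene, with 95% Clopper-Pearson intervals as error bars, beside all 18715 regions on the assembled chromosomes. The WT-only regions stand apart outside every gene, at 44.9%, and the regions of all 5 libraries have the highest share in coding sequence, at 27.7%, which was 16.3% and below the KI-only share when WT ESC peaks under the median fold enrichment were left out.

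The place within a gene was compared as well. Of intronic regions, 18.8% of those in all 5 libraries, 5.75% of the WT-only and 19.4% of the KI-only regions had their summit within 100 bp of an exon, against 16.2% of all intronic regions. The first intron held 24.5%, 29.9% and 33.4%, against 30.4%. The WT-only share near exons was thus the one farthest from that of all regions. The genes that held them had a median span of 49379 bp, 129886 bp and 48401 bp, so WT-only regions lay in the longest genes. All regions in coding genes had a median gene span of 64867 bp. Regions outside every gene had a median distance to the nearest coding gene of 31.7 kb, 82.1 kb and 10.9 kb, against 49.0 kb for all regions there. KI-only regions thus lay in or close to genes, and WT-only regions often in long genes or far from genes.

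Tandem repeats were found in 54 of 715 regions of all 5 libraries (7.55%), in 77 of 225 WT-only regions (34.2%; 28.0% to 40.8%) and in 33 of 999 KI-only regions (3.30%; 2.28% to 4.61%), against 16.5% of all regions. Within coding genes alone the shares were 5.40%, 25% and 3.40%, against 9.96% of all regions there. Outside coding genes they were 23.5%, 44.8% (35% to 54.8%) and 2.33%, against 40.3% of all regions, so the WT-only share lay near that of all regions there. CT repeats were 13 of the 30 in WT-only regions of coding genes, next to 4 of ACAG, 4 of AG and 3 of GT, read on the strand of the gene. The 34 repeats in regions of all 5 libraries were led by AG (8) and GT (6), with 4 of CT, and the 31 in KI-only regions by GT (7) and AG (5). The shares of the shared and KI-only regions rested on Tet2-KI replicate 2: without it, 19.4% of the regions of all remaining libraries and 9.13% of the KI-only regions held a tandem repeat, and 22.7% and 11.2% lay outside every gene.

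The base composition on the gene's strand set the classes apart in the same way. Regions of coding genes with at least 65% C or T made up 1.43% of those in all 5 libraries, 22.5% of the WT-only (15.4% to 31.0%) and 0.876% of the KI-only regions, against 4.80% of all regions and 3.20% of windows laid along coding genes. Regions with at least 65% A or G made up 39.4%, 25% and 21.1%, against 22.3% of all regions and 1.95% of the windows. The purine-rich share was thus near that of all regions in the WT-only and KI-only classes and above it in the regions of all 5 libraries, and the pyrimidine-rich share was above it in the WT-only class. Longer repeats of 5 to 60 nt without a tandem repeat, looked for after the sequences were seen, made up 4.92%, 4.17% and 1.20% of regions of coding genes, against 1.45% of all regions and 0.20% of windows. Dyrk1a, Calm2 and Dhx8, with a unit of 54 nt, belong to this group.

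**Figure D4:**
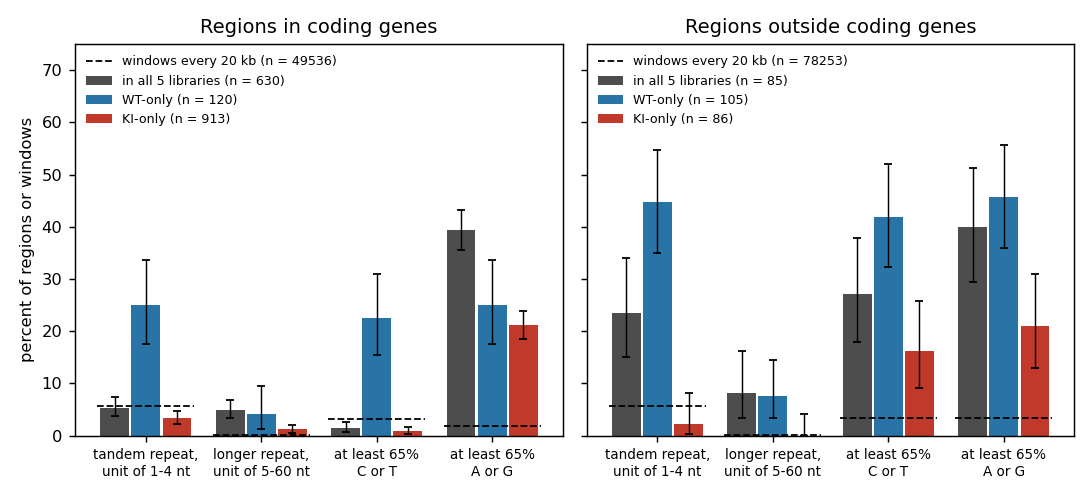
Percent of regions of each class with a tandem repeat, a longer repeat, or at least 65% C or T or A or G, in coding genes (left, on the gene's strand) and outside them (right), with 95% Clopper-Pearson intervals as error bars. Dashed lines give windows laid every 20 kb, and in coding genes the WT-only bars are the tallest for tandem repeats (25%) and pyrimidine-rich sequence (22.5%).

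Among the regions that all 3 WT ESC libraries held, the same features went with fewer peaks in the Tet2-KI lists, mostly in that of replicate 2. Those with peaks in both or in neither Tet2-KI library are the shared and WT-only classes above, so their shares are no further evidence. Of those with a tandem repeat, 16.4% (n = 329) had a peak in both Tet2-KI libraries, and of those without one, 55.0% (n = 1205), while 23.4% and 12.3% had none in either. Tet2-KI replicate 1 alone held 76.0% of those with and 85.7% of those without a repeat, and replicate 2 held 17.0% and 57.0%. In coding genes, 9.47% of the pyrimidine-rich regions (n = 95) and 59.9% of the purine-rich regions (n = 414) had a peak in both, and 28.4% and 7.25% had none in either. Replicate 1 held 71.6% and 91.8% of these and replicate 2 held 9.47% and 60.9%. The share with both was 70.2% in coding sequence, 52.8% in introns and 15.4% outside every gene. In replicate 1 these shares were 91.8%, 86.2% and 73.5%, and in replicate 2 they were 71.6%, 54.6% and 16.4%. The direction was thus the same in both replicates, and the gap was wider in replicate 2. These regions were also ordered by the lowest fold enrichment over the 3 WT ESC libraries and cut into 4 groups of 377 to 390, from low to high. In these groups 34.4%, 37.9%, 42.3% and 72.4% had a peak in both Tet2-KI libraries, and 12.6%, 21.2%, 20.9% and 4.17% had none. Tet2-KI replicate 1 held 86.2%, 76.1%, 77.3% and 94.8% of them and replicate 2 held 35.6%, 40.6%, 44.1% and 73.4%. The steady rise was thus in replicate 2 alone. Median fold enrichment in WT ESC replicates 1, 2 and 3 was 7.19, 8.41 and 8.42 for regions of all 5 libraries and 6.24, 5.99 and 6.14 for WT-only regions. Over all regions with a peak in the replicate it was 6.32, 5.56 and 5.58. The most enriched of the 4 groups thus stood apart from the other 3, and the WT-only medians were below those of the regions of all 5 libraries but not below those of all regions in replicates 2 and 3.

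Regions of all 5 libraries in coding genes were ranked by the fold enrichment of their lowest WT ESC replicate, and the first 10 were all intronic. Ube2v1, a ubiquitin-conjugating enzyme variant, held such a region at chr2:167440233-167440506 with fold enrichments of 24.8, 27.1 and 32.1 in WT ESC replicates 1, 2 and 3, and it also lies in the overlapping gene Tmem189. Dyrk1a, a protein kinase, followed at chr16:94851402-94852006 with 24.8, 58.6 and 25.9, and Calm2, a calmodulin gene, at chr17:87837170-87837394 with 23.3, 35.4 and 61.3. Replicate 2 was thus far above the others in Dyrk1a and replicate 3 in Calm2. The 10 also included Med13l of the Mediator complex, Evl, an actin regulator, the junction scaffold Magi1, the ubiquitin ligase Nedd4, the splicing helicase Dhx8 and the kinase anchor Akap10. Each of the 10 had a peak in at least 1 TKO ESC library and at least 1 WT EB library.

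The 10 WT-only regions ranked in the same way in coding genes were intronic as well. Ebf1, a transcription factor of B cells, held the first of them, with fold enrichments of 13.0, 13.5 and 13.2 that differed little among the replicates. Rora, a nuclear receptor, followed with 8.84, 12.7 and 8.71 and Odz4, a teneurin of neuronal adhesion, with 12.1, 8.32 and 9.53. Abca9, an ABC transporter, had 8.94, 9.54 and 7.89 and Plxdc2 had 10.2, 8.67 and 7.55. The other 5 were Bcas3, the zinc finger gene Hivep3, Adap1, the axon guidance ligand Ntn1 and the recombination gene Rad51l1. Of these 10 regions 4 had a TKO ESC peak, none had a WT EB peak, and 2, in Odz4 and Ntn1, had a peak in 1 Tet2deltaRBD-KI library. Odz4 also held 4 regions of all 5 libraries, so the same gene gave both classes.

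Of the 10 KI-only regions that were first on their chromosome, 6 were coding and 4 intronic. Coding sequence held those of Terf1, which binds telomere repeats, the chaperone Hspa14, the zinc finger gene Zbtb10, the microtubule minus-end gene Camsap3, the centrosomal gene Cep57 and the kinase anchor Akap12. Introns held those of Fam110b, the cell-cycle kinase Cdk6, Ppp1r9a of dendritic spines and the protein kinase Prkcc. Terf1 and Zbtb10 each had peaks in 2 TKO ESC libraries, in WT EB libraries and in 1 Tet2deltaRBD-KI library, and Camsap3 in both Tet2deltaRBD-KI libraries. Hspa14, Fam110b, Prkcc and Akap12 had none in the 8 other libraries.

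At the level of genes, 6045 coding genes held a region, of which 471 held 1 or more of all 5 libraries (7.79%), 113 a WT-only region (1.87%) and 789 a KI-only region (13.1%). Many genes held peaks of the other group elsewhere. Of the 113 genes with a WT-only region, 81 (71.7%) had a peak of at least 1 Tet2-KI library elsewhere in the gene and 40 (35.4%) of both, and of the 789 with a KI-only region, 502 (63.6%) had a peak of at least 1 WT ESC library elsewhere and 191 (24.2%) of all 3. Of the 6045 genes, 51 (0.844%) had peaks in all 3 WT ESC libraries and none in Tet2-KI cells. Another 429 (7.10%) had peaks in both Tet2-KI libraries and none in WT ESCs. The first rule asks for peaks in 3 lists and the second in 2, so these counts are not like for like. Peaks in all 5 libraries were found in 763 genes (12.6%).

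Eif3a, a subunit of the initiation factor eIF3, held the most regions of all 5 libraries, 6 of its 12 regions, with 5 in coding sequence. Their fold enrichment ran from 3.92 to 13.2 over the WT ESC replicates. Ddx10, an RNA helicase of ribosome biogenesis, held 5, Atrx, a chromatin remodeller, 5 and Mdn1, a ribosome assembly factor, 5. Hnrnpa3, Igsf21, Dst, Rbm25, Smc1a and Odz4 held 4 each, and Rbm25 encodes a splicing factor and Smc1a a cohesin subunit.

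The most WT-only regions in a gene were 2, reached by 7 genes. Polr2a, the largest subunit of RNA polymerase II, held both in its coding sequence at chr11:69548206-69548485 and chr11:69548677-69548920, with low fold enrichments of 1.73, 2.26 and 2.48 and of 2.07, 2.04 and 3.25, and neither had a peak in the 8 other libraries. Csgalnact1, a chondroitin sulphate enzyme, held both in introns with CT repeats, with fold enrichments of 4.17, 4.06 and 4.32 and of 14.7, 5.41 and 8.88. Cux2, a homeobox gene of neurons, held both in intron 2, and the others were St6galnac3, Ctbp2, Rad51l1 and Bcas3. The regions of Ctbp2, a transcriptional corepressor, also lie within the span that the annotation used here gives Fgfr2.

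Gpi1, the glycolytic enzyme glucose-6-phosphate isomerase, held 4 KI-only regions, the most of any gene, and all were in intron 9 between 34993705 and 35000672 of chromosome 7. None of its 7 regions was shared by all 5 libraries. Hspd1, the mitochondrial chaperonin, held 3, with 2 in coding sequence, and Smg1, a kinase of nonsense-mediated decay, held 3 in coding sequence. Tpm3, a tropomyosin, and Hira, a histone chaperone, held 3 each in introns. Abcc4, Odz3, Ranbp17, Adam23 and Foxn2 also held 3 each, and Abcc4, Ranbp17 and Adam23 held 1, 2 and 3 regions of all 5 libraries besides.

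A WT-only and a KI-only region lay in the same gene, at different places, in 12 genes: Arid1b, Cobl, Col4a2, Ctbp2, Dst, Foxn3, Ncam1, Rngtt, Smc3, Smyd3, St6galnac3 and Zbtb10. Smc3, a cohesin subunit, held both in coding sequence, a WT-only region at chr19:53696227-53696478 with fold enrichments of 5.81, 6.76 and 9.01 and a KI-only region at chr19:53716062-53716348. Arid1b, a subunit of the BAF remodeller, held a WT-only region at chr17:5174156-5174374 with 6.33, 6.73 and 8.74, a neighbouring region of all 5 libraries at chr17:5174617-5174845 with 14.6, 11.6 and 5.17, and a KI-only region at chr17:5033196-5033395. St6galnac3, a sialyltransferase, held a WT-only region with an AC repeat and a KI-only region with a GT repeat in its introns.

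Gene lists were read against the shares of all genes with a region, 7.79% for regions of all 5 libraries, 1.87% for WT-only and 13.1% for KI-only regions. Of the 28 hnRNP and FET genes with a region, whose proteins bind RNA and act in splicing, 11 (39.3%) held a region of all 5 libraries, 1 a WT-only and 6 (21.4%) a KI-only region. Sfpq, a paraspeckle protein, held 4 shared regions, and its most enriched one, at chr4:126704534-126704744, had 14.6, 8.75 and 7.88 in WT ESC replicates 1, 2 and 3. Hnrnpa3 held 4 and Hnrnpa2b1 held 3. Hnrnpf held 2 shared and 2 KI-only regions. Of 23 translation initiation factors, 5 (21.7%) held a shared region, 1 a WT-only and 5 (21.7%) a KI-only region. Eif5b held a WT-only region in its 5′ UTR with 4.37, 4.42 and 2.71 and a shared one in its coding sequence with 9.79, 11.6 and 11.4. Of 11 SR protein genes, which regulate splicing, 3 held a shared, 1 a WT-only and 3 a KI-only region. Srrm2 held a WT-only region in coding sequence at chr17:23943906-23944116 and a shared one in the adjoining intron at chr17:23944271-23944544. These splicing and translation lists stood above the shares of all genes in regions of all 5 libraries, and in KI-only regions too. The DNA damage, BAF and NuRD, Polycomb, RNA methylation, DNA methylation and neuronal lists below were also above 7.79% in shared regions, at 8% to 11.8%.

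Genes of the stem cell state, of its signals and of DNA damage were counted next, against the same shares of all genes. Of 16 pluripotency genes with a region, none held a region of all 5 libraries or a WT-only region, and 1, Lifr, the receptor of leukemia inhibitory factor, held a KI-only region. Of 25 genes of LIF, FGF and Wnt signalling, none held a shared region, 1 held a WT-only region and 6 (24%) a KI-only region. These 6 were Apc, Fzd7, Gsk3b, Lifr, Lrp6 and Tcf7l2, and all but Lifr belong to Wnt signalling. Of 17 DNA damage genes, 2 (11.8%) held a shared, 1 a WT-only and 6 (35.3%) a KI-only region. With so few genes a list, a count of 0 to 2 lies near what the share of all genes gives. The shared one of Mdc1, a mediator of the damage response, at chr17:35987547-35987778, had 35.8, 24.6 and 11.9 and was found in all 8 other libraries. The KI-only ones were in Chek2, Parp1, Prkdc, Rad50, Trp53 and Xrcc5, and the WT-only one, in Rif1, had 11.0, 4.40 and 7.55.

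Among chromatin genes, 2 of 19 Polycomb genes held a shared region (10.5%), none a WT-only and 4 (21.1%) a KI-only region, which were Aebp2, Cbx6, Jarid2 and Suz12. Jarid2, a cofactor of the complex PRC2, held a shared coding region at chr13:44997960-44998208 with 5.96, 8.15 and 5.66 besides its KI-only one. Of 28 BAF and NuRD genes, 3 held a shared, 2 a WT-only and 3 a KI-only region. Smarcc1, a BAF subunit, had 5.35, 19.4 and 11.9 in its shared coding region at chr9:110106703-110106964. Of 11 DNA methylation genes, 1 (Tet1) held a shared, 1 (Mbd3) a WT-only and 2 (Dnmt1 and Tet2) a KI-only region. Mbd3, a NuRD subunit, had 3.16, 3.54 and 3.78 in its 5′ UTR at chr10:79861931-79862147, with no peak in the 8 other libraries. Of 10 RNA methylation genes, Ythdc1, a nuclear reader of methylated RNA, held a shared region and Nop2 and Ythdf1 held KI-only regions.

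Of the 25 neuronal guidance and adhesion genes with a region, 2 (8%) were in the shared class, against 7.79% of all genes, 3 were in the WT-only class (12%) and 1 in the KI-only class (4.00%). Cdh4, a cadherin, held 2 shared regions in intron 2, and the upper, at chr2:179240731-179240952, had 39.7, 9.47 and 20.5. Dab1, an adaptor of reelin signalling, held a shared region and a WT-only one with an AG repeat, Ncam1 a WT-only and a KI-only region, and Ntn1 a WT-only region. The 9 genes that the study itself named were chosen on these WT ESC libraries and are no independent evidence. Of these, 7 held a shared region, 2 a WT-only region (Dab1 and Mbd3) and 1 a KI-only region (Jarid2). Dab1 and Jarid2 are counted among the 7 as well. Eed, also named by the study, had a region but none of these classes.

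Noncoding genes held 24 regions of all 5 libraries. Malat1, an abundant nuclear RNA, held 5 of them with fold enrichments from 1.82 to 4.61, among the lowest of the named regions. Tsix held 3 with 8.13 to 28.9 and Xist, which it overlaps on the opposite strand, held 2 with 4.88 to 27.1. The peak lists carry no strand, so the assignment to these RNAs is uncertain. Meg3 held 1 with 8.83, 8.64 and 11.4, and Neat1 held 1 with 6.43, 4.62 and 5.53. Of the KI-only regions 27 lay in noncoding genes, 3 of them in Pvt1, and of the WT-only regions 4. These are 3.36% of the regions of all 5 libraries, 2.70% of the KI-only and 1.78% of the WT-only regions, near the 2.25% of all regions.

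The 8 libraries of other genotypes or stage were not used to choose the regions. KI-only regions had a peak in 40.8% and 21.5% of cases in Tet2deltaRBD-KI replicates 1 and 2, against 18.3% and 9.98% of all regions. They had one in 2.09%, 17.5% and 8.47% in TKO ESC replicates 1, 2 and 3, against 4.43%, 15.9% and 14.0%, and in 0.798%, 5.78% and 12.8% in WT EB replicates 1, 2 and 3, against 1.98%, 8.06% and 11.8%. The share was thus above that of all regions in both Tet2deltaRBD-KI libraries and slightly above it in TKO ESC replicate 2 and WT EB replicate 3. It was below that of all regions in the 4 others. Most of all regions belonged to 1 library, while KI-only regions had to recur in 2, so these shares are not like for like. The Tet2deltaRBD-KI and Tet2-KI labels both lack the prefix that the other descriptions have, and the peak names of both carry 1711. Tag and experiment thus cannot be told apart here either.

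WT-only regions had a peak in 8.44% and 9.78% of cases in Tet2deltaRBD-KI replicates 1 and 2, in 9.78%, 9.78% and 21.3% in TKO ESC replicates 1, 2 and 3, and in 3.56%, 4.89% and 4.89% in the WT EB replicates. They lay above the share of all regions in TKO ESC replicates 1 and 3 and WT EB replicate 1, and below it in the 5 others. No other library held a peak in 131 of the 225 (58.2%), in 397 of the 1003 KI-only regions (39.6%) and in 18 of the 717 regions of all 5 libraries (2.51%), against 61.6% of all regions. Regions of all 5 libraries had a peak in 85.5% and 56.5% in the Tet2deltaRBD-KI, in 46.0%, 69.0% and 72.5% in the TKO ESC and in 22.0%, 52.2% and 50.6% in the WT EB libraries. Of these regions 617 (86.1%) had a peak in at least 1 TKO ESC library, in cells that lack the 3 Tet enzymes, against 23% of all regions. WT-only regions had to recur in 3 lists and these in 5, unlike most of all regions, so the shares are not like for like either.

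**Figure D5:**
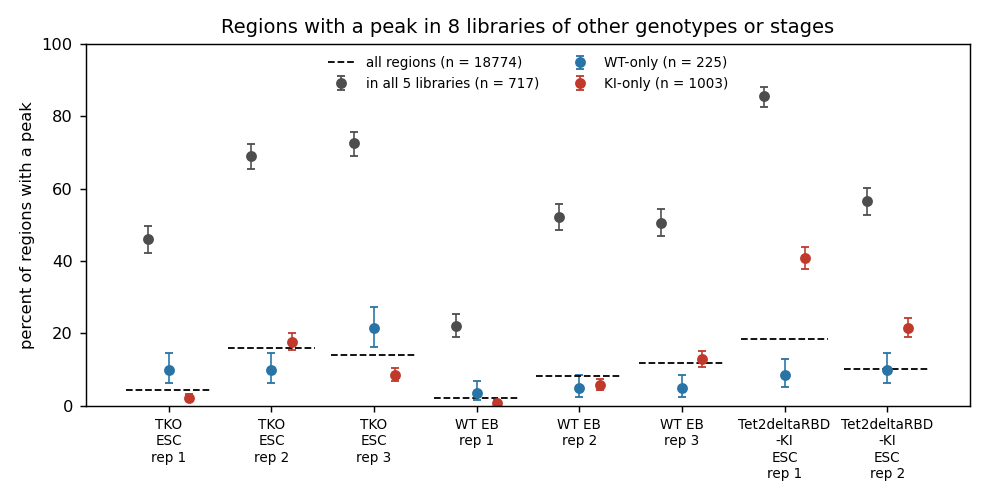
Percent of the regions of each class with a peak in each of the 8 libraries of TKO ESCs, WT EBs and Tet2deltaRBD-KI ESCs, with 95% Clopper-Pearson intervals, and dashed lines for all 18774 regions. Regions of all 5 libraries lie highest in every library, and KI-only regions lie above the dashed line in both Tet2deltaRBD-KI libraries, at 40.8% and 21.5%.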

How the data were processed

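The libraries were made by hMeRIP-seq, as the labels describe: total RNA was sonicated and precipitated with an anti-5hmC antibody, and an input was kept. The labels name extraction kits for WT ESCs, TKO ESCs and WT EBs, and the study's methods name the same kits for its hMeRIP-seq in general. Per the submitters' processing notes and the study's methods, reads were checked with FastQC, filtered with AfterQC, freed of rRNA and tRNA with Bowtie2, trimmed with Trimmomatic, aligned to mm9 with STAR, and peaks were called with MACS2 (q-value of 0.05), each immunoprecipitate being set against the input of that library. Tool versions, and whether the libraries kept strand, are not given in the sources used here. The authors deposited 200 bp intervals round summits. The WT ESC lists, as deposited, hold the fold enrichment of a peak over input, a ratio that the authors took from MACS2, and the Tet2-KI lists hold positions only, with 1 interval for each called peak, where the WT ESC lists hold 273 to 294 further summits. Reads and depth were not analysed here, so precision is limited by the number of libraries.

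Intervals overlapping by 1 bp or more were merged with Python 3.11.15 and pandas 2.3.3, and summits were assigned with GENCODE vM1 on NCBIM37 (samtools 1.23.1), in the order coding sequence, UTR, intron, noncoding gene and outside every gene. At least 99.7% of each list's peaks lay on assembled chromosomes. Groups were compared over libraries by exact permutation tests, 2-sided except for the Jaccard index, tested on simulated data. Shares of regions have 95% Clopper-Pearson intervals, which cover counting error only. The study calls its WT ESC hMeRIP-seq replicates biological and its comparison of the knock-in lines one of 3 independent experiments, of which 2 Tet2-KI libraries were analysed here. No label says which libraries were separate cultures, and p-values measure the spread between these libraries, which may in part be technical. At most 1.18% of intervals were identical in any of the 10 pairs of libraries.

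Named genes were the 10 of the highest lowest fold enrichment in WT ESCs, the 10 with the most regions of a class, the first KI-only region in a coding gene of each chromosome (10 described), Tet1, Tet2 and Tet3, and genes of the lists with a region of a class. The Tet genes and noncoding genes were looked up by name, and noncoding genes and genes with both a WT-only and a KI-only region were chosen after values were seen. Members and lists were chosen with earlier results of these data known. Same-numbered replicates of the groups are not from 1 culture by any label, and their deviations correlated at 0.0199 and 0.0187, so the numbers do not pair the libraries. Alternatives were the overlap, chromosomes 1 to 19 and X, presence in 2 of 3 WT ESC libraries, WT ESC peaks above the median enrichment, repeat length, exon rule, annotation, the replicate block and each library left out. Chosen after seeing the data were 1 summit per called peak, class counts and the share outside coding genes without tandem repeats (for the Jaccard index this was planned), the longer repeats, and the shares by single Tet2-KI library. A few items are not reported here.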

Additional observations from a re-analysis of the deposited data

How the results depend on the processing

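The peak number rested on Tet2-KI replicate 1: leaving out 1 library at a time gave a log2 difference from -0.024 to 0.82, and -0.024 without that library turned the direction. The same step gave a difference in the intronic share of -6.60 to -1.46 percentage points, a tandem repeat share different by -17.9 to -8.39, a share outside coding genes different by -18.4 to -10.0 and a Jaccard difference of 0.0260 to 0.104. With WT ESC peaks at or above the median enrichment, which removes WT ESC peaks by construction, the log2 peak number differed by 1.39 and the intronic share by -8.07. None of the 5 exact permutation tests passed a threshold of 0.05 in any setting, and with 3 libraries against 2 none could, so the 46 of 47 alternatives that kept direction and side of the threshold say nothing on the stability of p-values.

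Regions of all 5 libraries numbered 1327 with presence in 2 of 3 WT ESC libraries, 357 with WT ESC peaks at or above the median enrichment and 746 to 1286 with 1 library left out. WT-only regions numbered 1236, 48 and 252 to 794 under these settings and 148 without tandem repeats, a setting added after seeing the data. KI-only regions numbered 1188 to 5018 with 1 library left out and stayed at 1003 in the first 2. The counts with presence in 2 of 3 libraries or 1 library left out follow from how many lists must hold or lack a peak, and those under the enrichment and repeat settings from fewer peaks or regions being counted. Of 99 shares of the classes, 84 stayed within their interval and 15 moved. Some were fixed in advance: KI-only shares were the same in the first 2 settings, and tandem repeat shares had to be 0 without tandem repeats. These counts are thus no measure of stability.

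With the replicate block (replicates 1 and 2 of each group as pairs), the differences were 0.47 in log2 peak number, -1.93 in the intronic share, -13.3 in the tandem repeat share and -14.3 in the share outside coding genes. The block changed no call. No block value was computed for the class counts, which have no test, or for the Jaccard difference, which is taken over pairs of libraries.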
